A study of Mus musculus with 7 samples.

Results

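The genes described here are 30 genes of cholesterol synthesis, uptake and SREBP2 control, out of 24240 gene names in a deposited table of RNA levels in mouse gonadal fat. They were picked by function from textbook knowledge of the pathway, with earlier results of these data known. Each gene was read from the locus that carries its symbol, and where a symbol had 2 loci the one with the higher mean level was taken. All 30 were in the table, 18 of them enzymes that build cholesterol and 12 that sense, move or store it.

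The samples were gonadal fat of male CD1 pups at postnatal day 21, each pup from a different litter. The mothers of the 4 exposed pups had received BDE-47 (2,2',4,4'-tetrabromodiphenyl ether, a brominated flame retardant) by mouth at 0.2 mg per kg body weight each day. The mothers of the 3 control pups had received the tocopherol-stripped corn oil carrier alone. Dosing ran from pregnancy day 8 to postpartum day 21, so pups were exposed through the mother before birth and through nursing. The labels give the strain and no other genotype. Levels are in FPKM, fragments scaled to transcript length and to the reads mapped, which allows levels to be compared between genes. The table gives a single FPKM per group and none per mouse, so the spread between pups is unknown. No test across mice was possible, the library depths are not in the table, and every value below describes these 2 groups. The log2 ratio is the log2 FPKM of the BDE-47 group minus that of the control group, so values above 0 are higher in exposed fat. A locus counted as measured when it carried a gene name and exceeded 1 FPKM in at least 1 group, which held for 14262 loci and for 28 of the 30 genes.

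Cells make cholesterol from acetyl-CoA by way of mevalonate, isoprenoid diphosphates, squalene and lanosterol. When the membrane of the endoplasmic reticulum holds little sterol, SCAP carries the transcription factor SREBP2 to the Golgi, where proteases release its active part, which switches on most genes of the pathway. When sterol is plentiful, INSIG proteins hold the complex back. In fat, most cholesterol lies unesterified in the membranes and lipid droplets of adipocytes, whereas macrophages store it as ester.

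SREBP2 acts on promoters together with other factors, so the RefSeq promoter windows of the genes (GRCm38.p6, 250 bases before to 50 after the annotated start) were searched for 4 short motifs on both strands. These were TCACNCCAC, the core of a sterol regulatory element, CCAAT, the box bound by NF-Y, GGGCGG, the GC box bound by Sp1, and CACGTG, an E-box. Of the 30 genes, 24 had at least 1 window. A match to CCAAT was present in 20 of the 24 (83.3%), against 42.5% of 9949 measured genes with a window and 41.1% of all 27025 genes with one. GGGCGG was present in 21 of the 24 (87.5%), against 67.1% of the measured genes. CACGTG was present in 5 (20.8%), against 11.7%. TCACNCCAC was present in 1 (4.17%), against 1.41% of the measured genes, and that gene was Hmgcs1. Matches of different motifs did not overlap in the windows of these genes. A match describes the letters in the window and is not evidence of binding, and a window with no match says nothing about SREBP2 at that gene.

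The 5 windows below belong to the enzyme genes with the 3 largest log2 ratios, to Insig1, a brake of the pathway that SREBP itself induces, and to Soat1, the gene with the lowest ratio. They are written 5′ to 3′ on the strand of the gene, with matches to any of the 4 motifs in capitals. A motif on the other strand appears as its reverse complement, so ATTGG stands for CCAAT and CCGCCC for GGGCGG. The windows are chr13:119690101-119690400 for Hmgcs1 and chr5:28071162-28071461 for Insig1 on the plus strand. On the minus strand they are chr8:122443373-122443672 for Mvd, chr9:42264251-42264550 for Sc5d and chr1:156474279-156474578 for Soat1.
Hmgcs1: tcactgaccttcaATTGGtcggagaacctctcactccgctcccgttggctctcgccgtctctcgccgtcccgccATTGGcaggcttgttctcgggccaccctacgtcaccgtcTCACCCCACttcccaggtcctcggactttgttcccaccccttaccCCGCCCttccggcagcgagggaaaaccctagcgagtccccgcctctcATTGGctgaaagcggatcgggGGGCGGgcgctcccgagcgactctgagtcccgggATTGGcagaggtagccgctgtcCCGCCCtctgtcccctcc
Mvd: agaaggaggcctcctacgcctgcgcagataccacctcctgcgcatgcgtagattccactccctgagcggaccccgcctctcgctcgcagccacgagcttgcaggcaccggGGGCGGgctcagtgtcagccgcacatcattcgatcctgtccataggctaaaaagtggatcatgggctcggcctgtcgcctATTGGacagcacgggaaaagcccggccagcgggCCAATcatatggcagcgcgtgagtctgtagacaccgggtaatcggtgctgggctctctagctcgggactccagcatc
Sc5d: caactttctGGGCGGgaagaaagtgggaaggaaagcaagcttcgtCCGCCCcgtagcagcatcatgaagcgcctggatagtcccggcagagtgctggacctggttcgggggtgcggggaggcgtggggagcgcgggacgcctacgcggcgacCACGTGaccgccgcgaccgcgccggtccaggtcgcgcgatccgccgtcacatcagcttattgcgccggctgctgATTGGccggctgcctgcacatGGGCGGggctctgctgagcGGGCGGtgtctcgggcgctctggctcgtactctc
Insig1: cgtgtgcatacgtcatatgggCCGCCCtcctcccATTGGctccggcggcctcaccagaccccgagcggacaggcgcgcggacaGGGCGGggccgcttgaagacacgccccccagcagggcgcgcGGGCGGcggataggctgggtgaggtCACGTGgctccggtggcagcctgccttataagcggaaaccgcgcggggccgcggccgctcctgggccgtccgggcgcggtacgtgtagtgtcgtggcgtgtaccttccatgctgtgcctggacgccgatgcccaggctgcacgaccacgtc
Soat1: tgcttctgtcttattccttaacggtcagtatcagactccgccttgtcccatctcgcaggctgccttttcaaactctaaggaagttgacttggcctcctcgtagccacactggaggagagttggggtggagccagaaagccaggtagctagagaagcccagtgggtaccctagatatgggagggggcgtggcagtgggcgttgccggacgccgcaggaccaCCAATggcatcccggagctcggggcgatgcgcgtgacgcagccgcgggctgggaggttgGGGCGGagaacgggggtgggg
In the Hmgcs1 window the sterol element lay at positions −137 to −129 (the start site is 0), with 4 CCAAT boxes and 3 GC boxes beside it. Mvd held 2 CCAAT boxes and 1 GC box, and Sc5d held 1 CCAAT box, 4 GC boxes and 1 E-box. Insig1 held 1 CCAAT box, 3 GC boxes and 1 E-box. The Soat1 window, of a gene that stores cholesterol and does not make it, held 1 CCAAT box and 1 GC box.

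**Figure D1:**
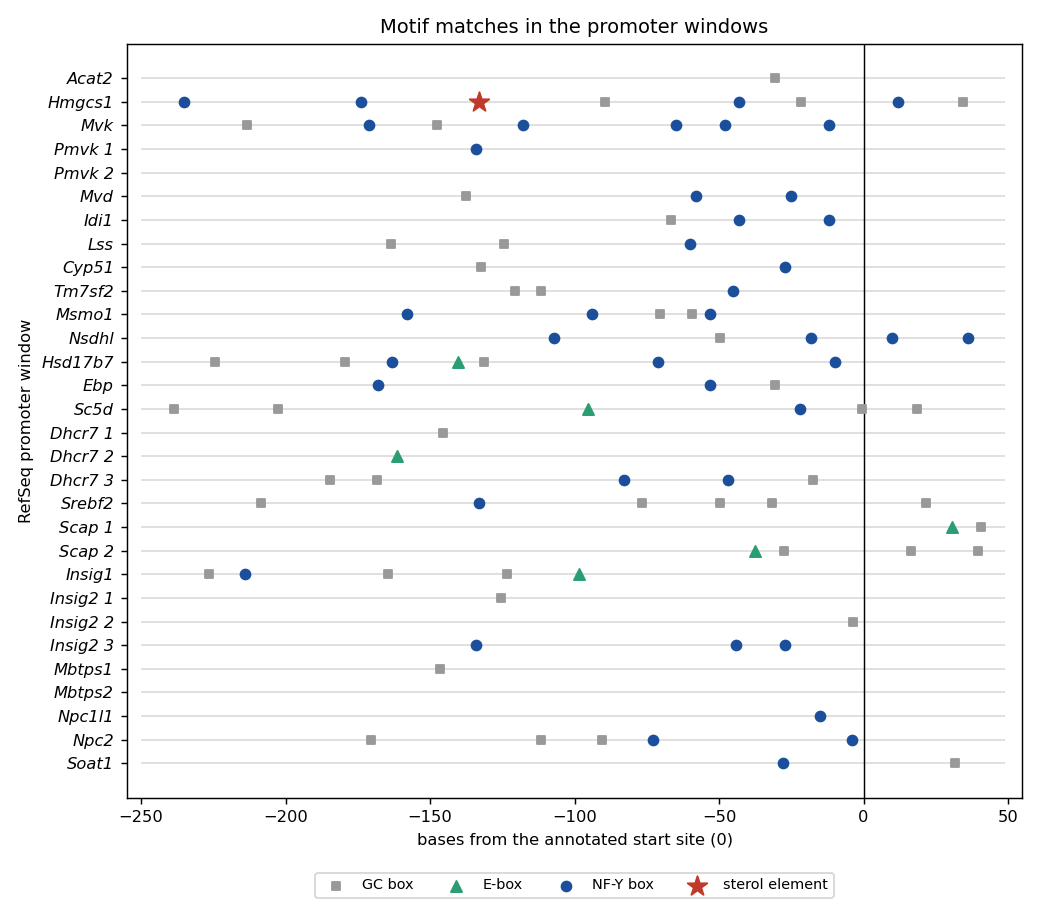
Positions of the motif matches in the promoter windows of 24 genes, 1 line per RefSeq window (genes with several windows are numbered), as bases from the annotated start site at 0. Each mark is the centre of a match on either strand, and the star in Hmgcs1, at −137 to −129, is the single sterol element.

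In exposed fat the group values of most enzymes that build cholesterol were higher than in control fat, by small amounts. Of the 18 enzymes, 13 had a log2 ratio above 0 and 5 below, against 50.8% of all measured loci above 0. The median log2 ratio of the enzymes was 0.235, and that of all measured loci was 0.01. Of the enzymes, 7 were at least 25% higher, a mark that 8.02% of all measured loci passed, and 0 were at least 20% lower (the inverse of the same fold), a mark that 15.0% passed. At 1.5-fold higher there were 0 enzymes, against 2.73% of measured loci, and at 2-fold higher 0, against 1.04%. Over all 28 measured genes, 19 were above 0 and the median log2 ratio was 0.17. The enzymes summed to 468 FPKM in controls and to 579 FPKM after exposure, 1.24-fold higher. Hmgcs1 alone made up 145 FPKM of the first sum and 208 FPKM of the second. Without it the sum was 323 and 371 FPKM, 1.15-fold higher.

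**Figure D2:**
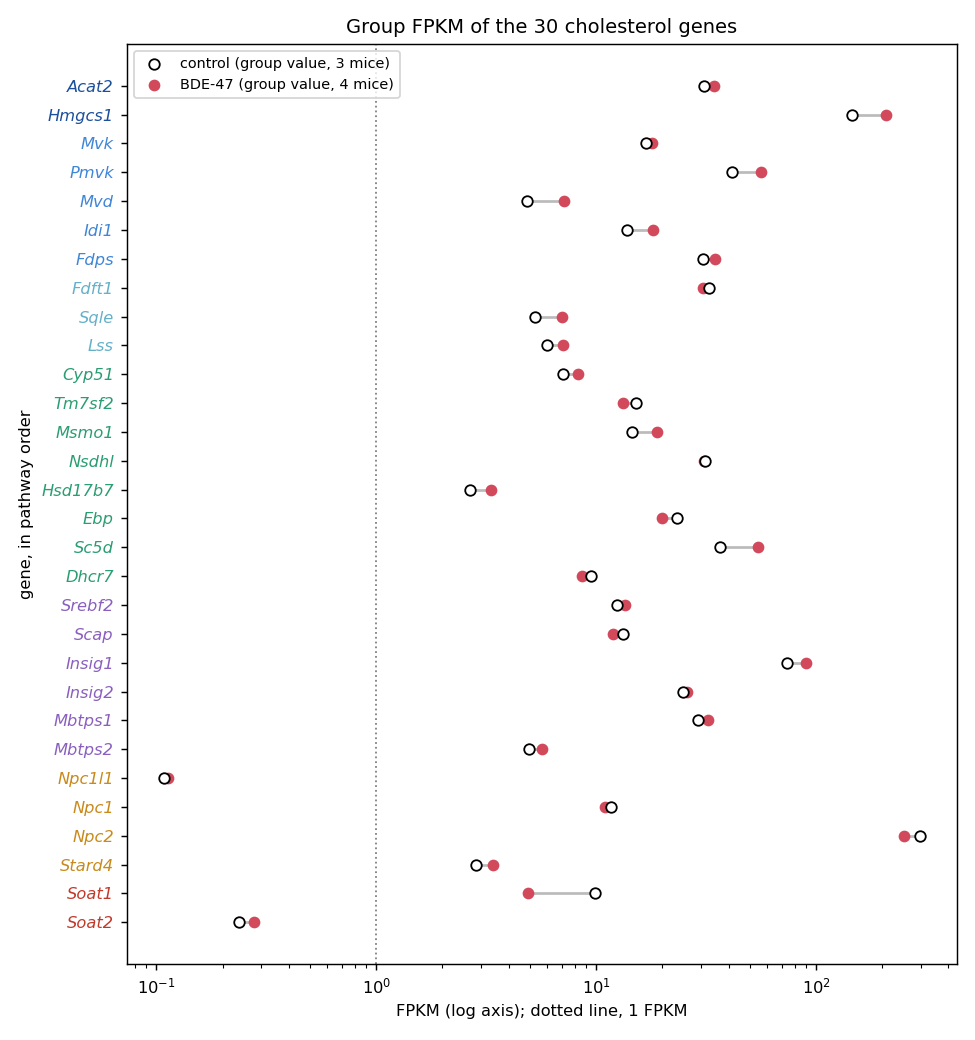
FPKM of each gene on a log axis, in pathway order, with an open circle for the control group and a filled circle for the BDE-47 group, 1 group value each and no error bar because no values per mouse are given. Hmgcs1, at 145 and 208 FPKM, and Npc2, at 296 and 251 FPKM, were the most abundant, and Npc1l1 and Soat2 lay left of the dotted line at 1 FPKM.

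The first steps join acetyl-CoA units. Acat2, the cytosolic thiolase that makes acetoacetyl-CoA, had 30.9 FPKM in control pups and 34.5 FPKM in exposed pups (log2 ratio 0.16). Hmgcs1, the cytosolic HMG-CoA synthase (chromosome 13, 119690379 to 119708260, plus strand), had 145 FPKM in control pups and 208 FPKM in exposed pups, 1.43-fold higher. It was the most abundant enzyme of the pathway, above 96.9% of measured loci in level, and its log2 ratio of 0.52 was above those of 96.5% of them. The level of Hmgcs1 relative to Acat2 was 4.69 in controls and 6.02 after exposure.

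The 5 enzymes from mevalonate to farnesyl diphosphate all had higher group values in exposed fat, against 50.8% of all measured loci. By at least 25% higher were 3 of them, against 8.02%. Mvk, mevalonate kinase, had 16.8 FPKM in control pups and 17.9 FPKM in exposed pups (log2 ratio 0.09). Pmvk, phosphomevalonate kinase, which adds the next phosphate, had 41.4 FPKM in control pups and 56.1 FPKM in exposed pups, 1.36-fold higher after exposure. Mvd, the decarboxylase that forms isopentenyl diphosphate (chromosome 8, 122433601 to 122443422, minus strand), had 4.86 FPKM in control pups and 7.16 FPKM in exposed pups, 1.47-fold higher after exposure. Its level was low for the pathway, while its log2 ratio of 0.56 was above those of 97.0% of measured loci. Idi1, the isomerase of isopentenyl diphosphate, had 13.8 FPKM in control pups and 18.1 FPKM in exposed pups, 1.31-fold higher after exposure. Fdps, which joins the isoprene units into farnesyl diphosphate, had 30.7 FPKM in control pups and 34.8 FPKM in exposed pups (log2 ratio 0.18).

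From farnesyl diphosphate the path turns to sterols alone. Fdft1, squalene synthase, was the single enzyme before lanosterol with a value below 0, at 32.7 and 30.7 FPKM and a log2 ratio of −0.09. Its gene body shares 774 bases with Ctsb, the cathepsin B gene on the opposite strand, and the table gives both genes the same span (chromosome 14, 63122461 to 63179578) with a separate value for each. Ctsb had 596 FPKM in control pups and 458 FPKM in exposed pups (log2 ratio −0.38), and whether reads were assigned by strand is not given in the sources used here. Sqle, squalene epoxidase, a rate-limiting step of the pathway, had 5.28 FPKM in control pups and 6.96 FPKM in exposed pups, 1.32-fold higher after exposure. Lss, which closes the rings to lanosterol, had 5.98 FPKM in control pups and 7.06 FPKM in exposed pups (log2 ratio 0.24). Over the 10 enzymes from Acat2 to Lss, 9 were above 0, against 50.8% of all measured loci. At least 25% higher were 5, against 8.02%, and the median log2 ratio was 0.315.

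Of the 8 enzymes that turn lanosterol into cholesterol, 4 were above 0 and 4 below, a split near the 50.8% of all measured loci above 0. Their median log2 ratio was 0.105. Cyp51, the lanosterol demethylase, had 7.06 FPKM in control pups and 8.28 FPKM in exposed pups (log2 ratio 0.23). Its gene body shares 166 bases with Akap9 on the opposite strand, and the table gives both genes 1 span (chromosome 5, 3928185 to 4104697) that covers both. Akap9 has a value of its own there, at 10.1 and 10.7 FPKM. Msmo1, the methyl sterol oxidase that follows it, had 14.5 FPKM in control pups and 18.9 FPKM in exposed pups, 1.30-fold higher after exposure. Hsd17b7, the keto-sterol reductase, was the least abundant enzyme, at 2.68 and 3.34 FPKM, and its log2 ratio of 0.32 came just short of the 25% mark, which is 0.322 on that scale. Sc5d, the sterol desaturase near the end of the path (chromosome 9, 42251595 to 42264256, minus strand), had 36.8 FPKM in control pups and 54.2 FPKM in exposed pups, 1.47-fold higher after exposure. A second locus named Sc5d, at 6.11 and 8.75 FPKM, had a log2 ratio of 0.52.

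The other 4 enzymes of this stretch had values below 0, none as much as 20% lower. Tm7sf2, a sterol reductase, had 15.1 FPKM in control pups and 13.3 FPKM in exposed pups (log2 ratio −0.19). Its locus also names Vps51, so the reads of these 2 genes cannot be separated within it. A locus that names Vps51 alone has the same span, at 1.08 FPKM in control pups and 1.16 FPKM in exposed pups (log2 ratio 0.11). Nsdhl, the sterol dehydrogenase, had 31.3 FPKM in control pups and 30.9 FPKM in exposed pups (log2 ratio −0.02). Ebp, the sterol isomerase, had 23.3 FPKM in control pups and 19.8 FPKM in exposed pups (log2 ratio −0.23). Dhcr7, the reductase that yields cholesterol itself, had 9.51 FPKM in control pups and 8.63 FPKM in exposed pups (log2 ratio −0.14). Neighbouring steps could lie on opposite sides of 0, as did Ebp and Sc5d, which act one after the other.

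**Figure D3:**
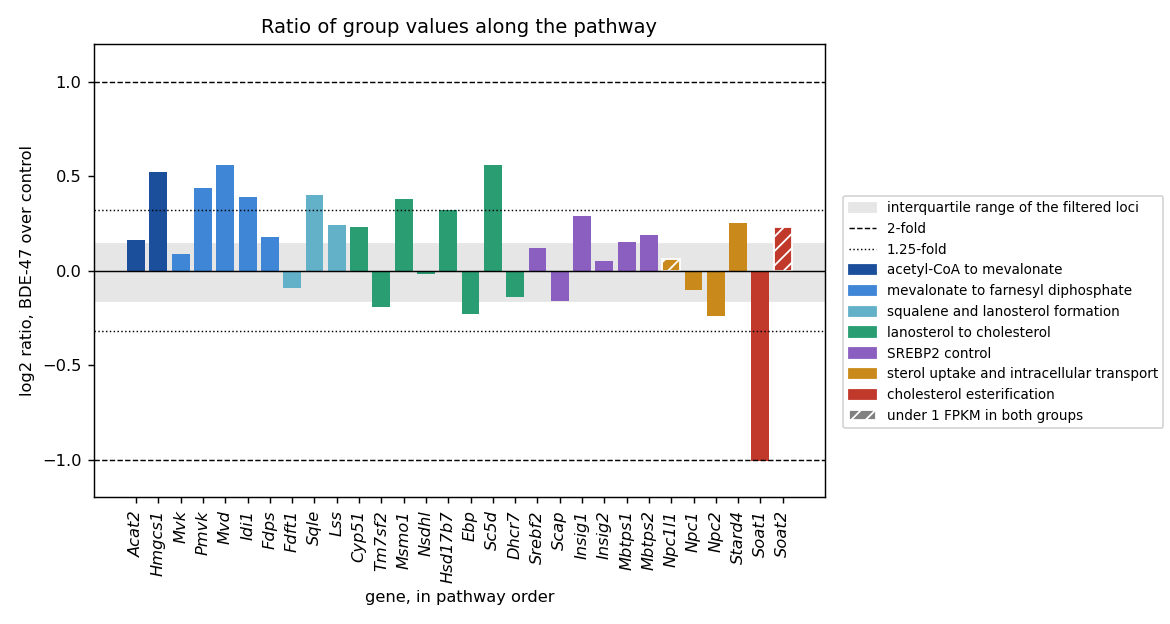
Log2 ratio of the BDE-47 group over the control group for each gene in pathway order, coloured by role, with dotted lines at 25% higher and 20% lower, dashed lines at 2-fold and a grey band for the interquartile range of all measured loci. The bars reach from 0.56 (Mvd and Sc5d) to −1.01 (Soat1), and hatched bars mark Npc1l1 and Soat2, under 1 FPKM in both groups.

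The genes that control SREBP2 differed little between the groups. Of 6, 5 were above 0 (4 with ratios centred on the adipocyte markers), against 50.8% of all measured loci. None was 25% higher or 20% lower, marks that 8.02% and 15.0% of all measured loci passed. For 6 genes this is near the share of all loci. Srebf2, which encodes SREBP2, had 12.5 FPKM in control pups and 13.5 FPKM in exposed pups (log2 ratio 0.12). Scap, its escort, had 13.3 FPKM in control pups and 11.9 FPKM in exposed pups (log2 ratio −0.16). Insig1, the INSIG gene that SREBP itself induces (chromosome 5, 28071363 to 28078662, plus strand), had 74.0 FPKM in control pups and 90.5 FPKM in exposed pups, 1.22-fold higher after exposure, and its ratio was above those of 89.8% of measured loci. Insig2, the other INSIG gene, had 24.9 FPKM in control pups and 25.8 FPKM in exposed pups (log2 ratio 0.05, and −0.02 with that centring). Insig1 transcripts thus outnumbered those of Insig2 by 2.97 to 1 in control and 3.51 to 1 in exposed fat, and those of Scap by 5.58 and 7.62 to 1.

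The proteases that release SREBP2 in the Golgi were also near their control values. Mbtps1, which makes the first cut, had 29.0 FPKM in control pups and 32.2 FPKM in exposed pups (log2 ratio 0.15). Mbtps2, which makes the second, had 4.96 FPKM in control pups and 5.66 FPKM in exposed pups (log2 ratio 0.19), in a locus that also names Yy2. Active SREBP2 depends on this cleavage, which RNA levels do not measure.

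Among the 3 measured genes of uptake and transport none was 25% higher or 20% lower, marks that 8.02% and 15.0% of all measured loci passed. Npc2, the soluble protein that binds cholesterol in the lysosome (chromosome 12, 84754562 to 84773152, minus strand), was the most abundant of the 30 genes, at 296 and 251 FPKM, a log2 ratio of −0.24. Npc1, the lysosomal membrane protein that receives cholesterol from it and whose gene shares 967 bases with Rmc1 on the opposite strand, had 11.7 FPKM in control pups and 10.9 FPKM in exposed pups (log2 ratio −0.10). Stard4, a carrier of cholesterol through the cytosol and an SREBP2 target, had 2.85 FPKM in control pups and 3.39 FPKM in exposed pups (log2 ratio 0.25). A second locus named Stard4, nearly as abundant at 2.48 and 2.11 FPKM, had a log2 ratio of −0.23, so the direction for this gene depended on the locus, and with both summed the log2 ratio was 0.05. Npc1l1, which absorbs cholesterol in the gut, was at 0.109 and 0.113 FPKM, under the filter.

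Soat1, which esterifies cholesterol for storage and is the main form in macrophages (chromosome 1, 156424525 to 156474331, minus strand), was the one gene of the 30 to reach a 2-fold difference. It had 9.85 FPKM in control pups and 4.89 FPKM in exposed pups, 2.01-fold lower after exposure. In that direction 4.24% of all measured loci passed 2-fold and 8.00% passed 1.5-fold, and 5.28% passed 2-fold in either direction. A second locus named Soat1 had 1.43 FPKM in control pups and 1.00 FPKM in exposed pups (log2 ratio −0.52). With both loci summed the log2 ratio was −0.94, and with 1 FPKM added to both groups it was −0.881, short of 2-fold in each case. Soat2, the form of hepatocytes and gut, was under the filter at 0.237 and 0.277 FPKM.

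Markers of macrophages were lower in the same samples. Of 15 macrophage markers, 14 had a log2 ratio below 0 and 1 above, where 50.8% of all measured loci were above 0. At least 20% lower were 9, against the 15.0% of all measured loci. Their median log2 ratio was −0.48, their summed level was 1802 FPKM in controls and 1134 FPKM after exposure, and none was listed at 0. The locus that joins Lyz1 and Lyz2, the lysozyme genes, had 885 FPKM in controls and 523 FPKM after exposure. Ctss, the cathepsin S gene, had 205 and 103 FPKM, and C1qa, a complement gene of tissue macrophages, had 121 and 97.0 FPKM. The part of these cells in the values of Soat1 and Npc2 was not tested. In whole tissue, fewer cells of a type and less RNA per cell cannot be told apart.

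Adipocyte markers, by which the labelled tissue was checked, were abundant in both groups. Of 16, 10 were above 0, against 50.8% of all measured loci, and 0 reached 2-fold, against 5.28%. Their median log2 ratio was 0.07, and their summed level was 63781 FPKM in controls and 70011.5 FPKM after exposure. Fabp4, the fatty acid carrier of adipocytes, led them at 32996 and 31652 FPKM, before Car3 at 8964 and 14362 FPKM and Cfd at 4182 and 6252 FPKM. Markers of hepatocytes, which also make cholesterol, were at least 2-fold lower in 15 of 15, against 4.24% of all measured loci. Some of the 15 passed the filter through the control group alone, which fixes their direction. The 15 summed to 766 FPKM in controls and 63.4 FPKM after exposure. Alb, the albumin gene, had 362 and 24.6 FPKM, Fabp1 85.0 and 11.2 FPKM and Ahsg 85.0 and 5.58 FPKM. Of 12 epididymis markers, 6 were measured, all through the control group alone, so their lower values in exposed fat follow from the filter. The 12 summed to 44.0 FPKM in controls and 0.400 FPKM after exposure, with 3 and 7 of them listed at 0. Crisp1, in a locus shared with Crisp3, had 18.6 and 0.171 FPKM, while Defb38 and Defb28 had 10.9 and 9.78 FPKM in controls and were listed at 0 after exposure. Of 7 markers of steroid-making cells, which also use cholesterol, 5 were under 1 FPKM in both groups. Star, which moves cholesterol into mitochondria for steroid synthesis, had 1.10 and 1.21 FPKM, and the locus that joins Insl3 with Jak3 had 18.6 and 15.0 FPKM. Of 8 germ cell markers, 7 were under 1 FPKM in both groups, Sycp3 at 61.4 and 56.1 FPKM being the exception. For the next 3 lists, the share of all measured loci above 0 was 50.8%. Mesothelial markers were above 0 in 5 of 6 with a median of 0.46 (Upk3b 28.4 and 49.5 FPKM, Krt19 19.8 and 26.9 FPKM, Msln 18.3 and 26.9 FPKM). Endothelial markers were above 0 in 6 of 7 with a median of 0.25 (Cdh5 74.5 and 80.4 FPKM, Pecam1 67.6 and 73.0 FPKM, Cldn5 65.3 and 58.1 FPKM). Smooth muscle markers were above 0 in 6 of 7 with a median of 0.78 (Tagln 154 and 158 FPKM, Acta2 140 and 130 FPKM, Myh11 14.9 and 36.3 FPKM). Of these 7, 3 were at least 2-fold higher, against 1.04% of all measured loci, with log2 ratios up to 3.13. The part of any of these cells in the values of the pathway was not tested.

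Genes of the same metabolism outside the 30 were taken from lists drawn up by function. Those of the isoprenoid branch, which uses farnesyl diphosphate for protein prenylation, ubiquinone and dolichol, resembled the synthesis enzymes in direction. Of 11, 10 were above 0, against 50.8% of all measured loci, and the median log2 ratio was 0.18. At least 25% higher were 0, near the 8.02% of all measured loci. In the pairs of values that follow, the control group comes first. Fnta, a prenyltransferase subunit, had 47.8 and 48.8 FPKM, and Coq2, of ubiquinone synthesis, 18.8 and 23.1 FPKM, while Rabggtb, of Rab prenylation, had 25.6 and 29.0 FPKM in a locus shared with Snord45c. Of 12 measured loci of proteins that act on sterol sensing and turnover at the endoplasmic reticulum, 8 were above 0. The share of all measured loci was 50.8%, and the median of the 12 was 0.05. Among them Vcp, the segregase, had 116 and 123 FPKM, and Ufd1, a cofactor of Vcp, had 35.8 and 42.8 FPKM.

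Genes of fatty acid and triglyceride synthesis, many of them targets of the related factor SREBP1, showed the same direction as the cholesterol enzymes. Of 21 measured loci, 19 were above 0, against 50.8% of all measured loci, and the median log2 ratio was 0.30. Of the 21, 8 were at least 25% higher, against 8.02% of all measured loci. Lower by at least the same fold was 1, Fads2, at 10.8 and 7.62 FPKM (log2 ratio −0.50), against 15.0%. The 21 loci summed to 6727 FPKM in controls and to 9867 FPKM after exposure. Scd1, a fatty acid desaturase, led them at 3169 and 5330.3 FPKM, and no sum without it was made. Dgat2, the triglyceride-forming acyltransferase, had 1168 and 1468 FPKM, and Thrsp, a lipogenic regulator, 744 and 1082 FPKM. Srebf1 transcripts, which encode SREBP1, exceeded those of Srebf2 by 6.15 to 1 in controls and 7.06 to 1 after exposure. The difference between the medians of these lists and of the enzymes was not tested, for want of values per mouse.

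The genes that export cholesterol or free it from stores were divided. Of 8 loci of efflux and of its regulator LXR, 3 were above 0, against 50.8% of all measured loci. At least 25% higher was 1, against 8.02%, and 2 were at least 20% lower, against 15.0%. With so few loci, these counts lie near the shares of all loci. The median was −0.055. Apoe, the apolipoprotein that accepts cholesterol, had 3350.1 and 3421 FPKM, Nr1h3, which encodes LXRα, 64.9 and 62.7 FPKM, and Abca1, a cholesterol exporter and the locus that was 25% higher, 46.2 and 58.9 FPKM. Of 13 measured loci of lysosomal and contact-site transport, 10 were below 0 and 3 above, against 50.8% of all measured loci above 0. At least 25% higher was 1, against 8.02%, and 3 were at least 20% lower, against 15.0%. The median was −0.08. Lamp1 and Lamp2, lysosomal membrane proteins that bind cholesterol, had 428 and 383 FPKM, and 149 and 143 FPKM. Lipa, the acid lipase that frees cholesterol from its esters in lysosomes, had 76.6 FPKM in control pups and 44.6 FPKM in exposed pups, 1.72-fold lower after exposure. Nceh1, which hydrolyses cholesterol esters in macrophages, had 10.1 FPKM in control pups and 4.59 FPKM in exposed pups (log2 ratio −1.13). It was the 1 locus of that list past 2-fold, a mark that 5.28% of all measured loci passed in either direction. The level of Soat1 relative to Nceh1 was 0.979 in controls and 1.06 after exposure. The macrophage markers given above were lower in the same samples, and their part in the values of Lipa and Nceh1 was not tested.

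Receptors for lipoproteins had 1 of 6 measured loci above 0, against 50.8% of all measured loci, and a median log2 ratio of −0.06. At least 20% lower was 1 of the 6, near the 15.0% of all measured loci. Cd36, a scavenger receptor and fatty acid transporter, had 1675 and 1629 FPKM, Lrpap1, a chaperone of the LDL receptor family, 86.2 and 76.6 FPKM, and Sort1, a sorting receptor, 78.8 and 82.1 FPKM. The enzymes of oxysterol and bile acid formation had 3 measured loci of 6, with Hsd3b7 at 46.9 and 47.2 FPKM, Cyp27a1 at 32.9 and 35.3 FPKM and Ebpl, a relative of Ebp, at 10.3 and 9.78 FPKM.

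**Figure D4:**
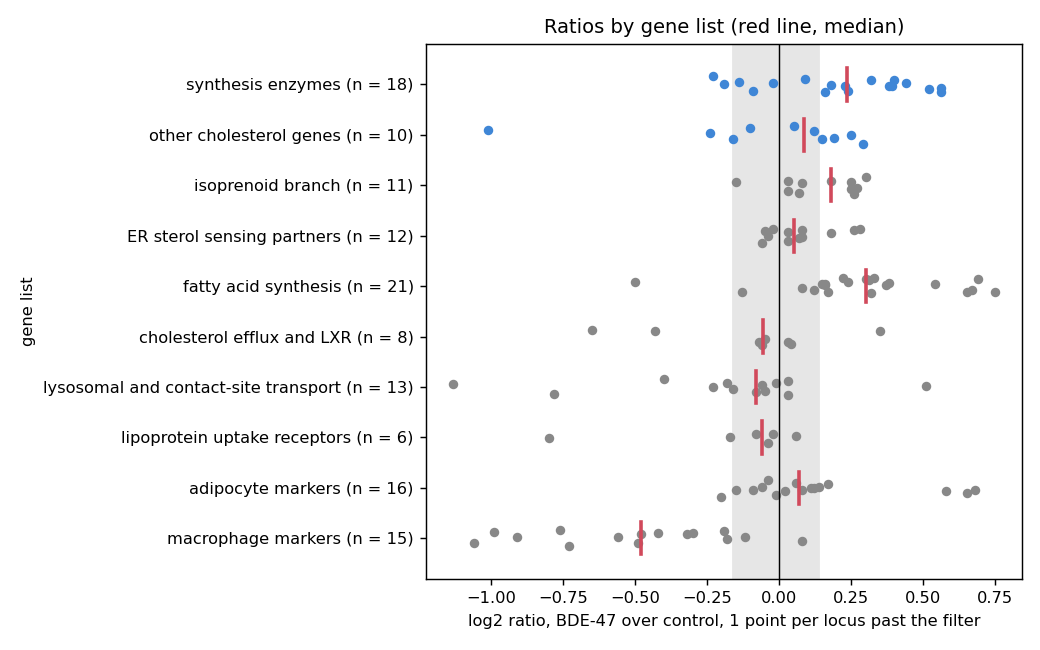
Log2 ratio of each locus past the filter, 1 point per locus, for the synthesis enzymes, the other 10 measured genes of the pathway, related lists and the adipocyte and macrophage markers. The red line is the median of a list and the grey band the interquartile range of all measured loci. The median lies at 0.235 for the synthesis enzymes, 0.30 for fatty acid synthesis and −0.48 for macrophage markers.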

How the data were processed

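RNA of gonadal fat from 4 BDE-47-exposed and 3 control male pups was sequenced as single-end poly(A) libraries, and 1 control library with fewer reads had been left out by the authors. Per the labels and the study's methods, reads were trimmed in BaseSpace, mapped to mm10 with TopHat2, assembled with Cufflinks 2.1.1 and compared with Cuffdiff 2.1.1. Which annotation, strand setting and scaling between libraries were used is not stated in the sources at hand. Afterwards the authors deposited the log2 FPKM of each group for 35534 loci, rounded to 0.01, with 0 FPKM listed at −10. The table also holds their log2 ratio, q value, test status and significance call, which were not used. It holds no column of a single mouse, so no test, SD or interval is given, and depth per library is not in it, the study's methods stating only a minimum.

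The log2 ratios were computed from the group columns, with a rounding error of up to 0.01 and no pseudocount. The filter (loci with a name, over 1 FPKM in either group) and the 2-fold mark follow the study, and marks of 25% higher and 20% lower, the same fold in each direction, were added. The genes and lists were chosen with earlier results of these data known. All 30 genes are named. Of each other list, the 3 measured genes of highest mean FPKM and, outside the marker lists, any gene past 2-fold are named. Genes of a list that share a locus count once. Results for some genes of the pathway and of these lists are not reported here. Positions were taken from GENCODE vM21 (GRCm38, the assembly of mm10), where all 30 loci overlapped their gene. For 11 of them the table gives the same span to another named locus, with separate values. Promoters are from RefSeq (GRCm38.p6), and 24 of the 30 genes matched by symbol. Alternatives changed the filter, pseudocount, scaling, locus choice, joined loci and fold. Python 3.11.15, pandas 2.3.3, numpy 2.4.6 and matplotlib 3.10.9 were used.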

Additional observations from a re-analysis of the deposited data

How the results depend on the processing

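Of 176 recomputed values for the counts and medians over the 30 genes, the sum of the enzymes, the fatty acid list's median and the log2 ratio of each of the 30 genes, 157 stayed within 1.5 times the reported value, 17 moved further and 2 changed sign. With ratios centred on the adipocyte markers, a shift of 0.07, the median log2 ratio of the measured genes was 0.10 in place of 0.17, and Insig2 and Npc1l1 changed sign, to −0.02 and −0.01. Centring on all measured loci shifted ratios by 0.01. For single genes, summing loci could change only the 4 with 2 loci, and removing the filter could not change the 18 enzymes, which all pass it. Many of the 157 values could thus hardly move, so that count is not a measure of robustness. With ratios centred on the adipocyte markers, 5 genes were at least 25% higher in place of 7. The median log2 ratio of the enzymes was then 0.165 in place of 0.235. At a mark of 1.5-fold, 0 of the genes were higher, in place of 7 at 25%. With 1 FPKM added, or with the loci of a symbol summed, 0 genes were past 2-fold, in place of 1 (Soat1), whose log2 ratio ranged from −1.08 to −0.881 over the settings tried. The log2 ratio of the summed enzymes was 0.307, and without Hmgcs1, a setting chosen after seeing the data, it was 0.20. The log2 ratio of Hmgcs1 ranged from 0.45 to 0.52 and that of Mvd from 0.478 to 0.56. No mouse could be left out in turn, since values are given per group. No paired analysis was made, since each pup came from a different litter and the study names no pairs. Genes under 1 FPKM, such as Npc1l1 and Soat2, are limited by the depth, which is not in the table.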

Other observations

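The genes below, from the lists next to the pathway, were picked out after their values were seen. Msr1, a scavenger receptor of macrophages for modified lipoproteins, had 12.0 FPKM in control pups and 6.92 FPKM in exposed pups (log2 ratio −0.80). Abcg1, a cholesterol exporter abundant in macrophages, had 16.2 FPKM in control pups and 12.0 FPKM in exposed pups (log2 ratio −0.43), whereas Abca1 had a log2 ratio of 0.35. Arl4c, a target of LXR, had 4.11 FPKM in control pups and 2.62 FPKM in exposed pups (log2 ratio −0.65). Osbpl1a, an oxysterol-binding protein of late endosomes, had 21.7 FPKM in control pups and 30.9 FPKM in exposed pups (log2 ratio 0.51). Gramd1a, which moves cholesterol from the plasma membrane to the endoplasmic reticulum, had 24.9 FPKM in control pups and 18.9 FPKM in exposed pups (log2 ratio −0.40). Among the enzymes of oxysterol formation, Ch25h and Cyp7b1 were under 1 FPKM in both groups.

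Mir33, a microRNA gene inside Srebf2, was listed at 0 in both groups. A second locus named Insig2 was under 1 FPKM in both groups, at 0.262 and 0.637 FPKM.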
